A study of Mus musculus with 18 samples.

Results

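Genes that encode albumin and its relatives, and the receptors and coat proteins through which cells take albumin up, were followed in livers and hepatocytes that had been given extra albumin from outside. They are 10 genes, Alb, Afp, Afm, Gc, Fcgrt, Cav1, Cav2, Cubn, Lrp2 and Dab2, found by gene symbol in the deposited TPM tables, which hold 16533 genes for the liver and 15579 for the cells. TPM is a gene's share of the transcripts of a library, corrected for transcript length. All 10 were listed for the cells and 9 for the liver, where Cubn was not analysed here. Liver RNA came from male db/db mice (B6.Cg-dock7m Leprdb/++/J), whose leptin receptor is defective and which grow obese and diabetic. Into a vein they received either rMSA, mouse serum albumin made as a recombinant protein (1.5 mg for each gram the animal weighed, n = 3), or saline (n = 3), in 3 injections 3 weeks apart over 9 weeks. The cells were AML12 hepatocytes, a mouse line started from hepatocytes of an animal that carried a human TGF alpha transgene, and the medium in which all groups were grown held insulin, transferrin, selenium and dexamethasone. After a night without serum they had 24 h of rMSA (600 µM), vehicle, rMSA (600 µM) with insulin (10 nM), or insulin (10 nM), with 3 libraries each. The labels name neither separate cultures nor ages of the mice, so p-values measure the spread between these libraries.

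Albumin is the main protein of plasma and is made by hepatocytes, and in blood it carries fatty acids, hormones and metals. Alpha-fetoprotein (Afp) is its fetal counterpart and is nearly silent in adult liver, afamin (Afm) binds vitamin E and carries Wnt proteins, and Gc, the vitamin D binding protein, also binds actin. On the uptake side, the neonatal Fc receptor FcRn, whose heavy chain is encoded by Fcgrt, returns albumin from endosomes to the surface. Caveolin 1 (Cav1) and caveolin 2 (Cav2) build caveolae, through which endothelium carries albumin, while cubilin (Cubn), megalin (Lrp2) and the clathrin adaptor Dab2 reclaim it in the kidney tubule. The deposited values measure the cells' own mRNA, so they ask what the cells did with these genes while the protein was supplied.

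The 4 family genes lie on mouse chromosome 5 (GRCm38, RefSeq annotation). Alb is at chr5:90460870-90476602, Afp at chr5:90490714-90508907 and Afm at chr5:90518949-90553544, all on the plus strand, with 14111 bases between Alb and Afp and 10041 between Afp and Afm. Gc, at chr5:89417511-89457898, is on the minus strand, 1002971 bases before Alb. The 150 bases before each annotated start site, 5′ to 3′ on the gene's own strand, are shown because these promoters drive the genes whose levels are described next. Capitals mark GTTAAT on either strand, one arm of the palindrome bound by the liver factor HNF1. They lie at chr5:90460720-90460869 (Alb), chr5:90490564-90490713 (Afp), chr5:90518799-90518948 (Afm) and chr5:89457899-89458048 (Gc), and the sequences are RefSeq's for GRCm38.p6.
Alb: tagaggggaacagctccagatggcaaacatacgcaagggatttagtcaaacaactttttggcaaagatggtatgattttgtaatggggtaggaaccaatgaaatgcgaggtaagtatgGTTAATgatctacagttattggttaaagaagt
Afp: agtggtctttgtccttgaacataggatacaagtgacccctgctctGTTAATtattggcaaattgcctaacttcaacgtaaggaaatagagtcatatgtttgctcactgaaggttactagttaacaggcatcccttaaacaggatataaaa
Afm: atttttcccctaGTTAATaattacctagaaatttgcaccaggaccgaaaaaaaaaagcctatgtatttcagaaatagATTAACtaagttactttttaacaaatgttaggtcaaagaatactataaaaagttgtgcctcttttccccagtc
Gc: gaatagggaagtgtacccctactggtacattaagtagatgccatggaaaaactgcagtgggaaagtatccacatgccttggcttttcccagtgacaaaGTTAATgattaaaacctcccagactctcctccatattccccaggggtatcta
All 4 windows held GTTAAT, 1 copy each in Alb, Afp and Gc and 2 copies, on opposite strands, in Afm. It was found in 7.10% of 32851 promoter windows of 300 bases, which run from 250 bases before to 50 after a start site. The longer form, GTTAAT followed by any base and ATT, was found in Afp, Afm and Gc and in 0.399% of all windows, and the Alb window did not hold these letters. CCAAT, also searched on both strands, was in all 4 and in 37.4% of windows, and in Afp it overlapped that longer form. TATAAA was in Afp and Afm and in 13.6% of windows. Of the 8 windows of the other 6 members, only the second window of Dab2 held GTTAAT. A match is a description of letters and not of binding.

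**Figure D1:**
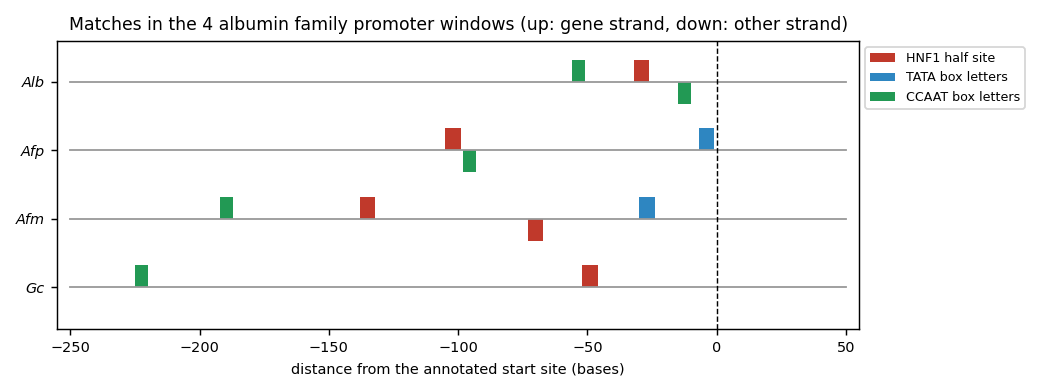
Matches to 3 short motifs in the promoter windows of Alb, Afp, Afm and Gc, by distance in bases from the annotated start site (dashed line). Bars above a line are on the gene's strand and bars below it on the other strand, and each of the 4 windows holds at least 1 match to GTTAAT.

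Before the results, some facts of the libraries that touch them are needed. Differences were tested on log2(TPM + 1) with limma, for genes that averaged 1 TPM or more, 11398 in the liver and 10826 in the cells, and a gene passed at an adjusted p under 0.05. The added 1 TPM shrinks the fold changes of genes near that level. TPM keeps no read counts, so depth is unknown. AML12 insulin libraries 1 and 2 stood apart, with a median gene at 14.6 and 11.2 TPM, against 16.2 to 22.6 TPM in the other 10, and with 31.6% and 33.9% of TPM in ribosomal protein genes, against 20.8% to 26.4%. The median of all genes moved by 0.12 (log2) in the liver, 0.06 for rMSA against vehicle, 0.21 for rMSA + insulin against insulin, -0.30 for insulin against vehicle and -0.15 for rMSA + insulin against rMSA. With each library centred on its median, the passing genes split into 1642 higher and 1496 lower in the liver, where they were 2487 and 955 as deposited, and into 707 and 740 for rMSA + insulin, where they were 1575 and 296. For rMSA against vehicle the split was 607 and 333, and as deposited 639 and 205. The label hepatocyte was checked against 10 defining genes. All 10 were at or above 1 TPM in the livers, and 4 or 5 were in the AML12 groups, where Cps1, the first enzyme of the urea cycle, was at or near 0 and Krt19, a keratin of bile duct cells, averaged 1097 to 1477 TPM. Of the hepatocyte genes present there, Hnf4a averaged 74.3 to 121 TPM, Ttr 51.2 to 220 TPM and Apob 8.23 to 30.7 TPM. Of 10 bile duct markers 5 were at or above 1 TPM in each AML12 group.

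Levels showed how far apart the 2 systems were. In the livers Alb held on average 4.83% of all TPM under rMSA and 4.23% under saline, and it was the highest gene in every liver but saline liver 3, where Apoe was higher. In AML12 hepatocytes Alb ran from 23.60 TPM (rMSA library 2) to 93.85 TPM (insulin library 3) and ranked between 1406 and 5113 among the genes of a library. The 4 family genes together summed to 51073 to 59354 TPM in rMSA livers and 38101 to 59624 TPM in saline livers, and to between 99.94 and 274.93 TPM over the 12 AML12 libraries. The tables were normalized separately, so no test joins them. In both groups of livers the order of the means began with Alb, Gc, Fcgrt, Afm and Dab2 and ended with Cav2 and Lrp2. Between them Cav1 stood above Afp in rMSA livers (2.26 and 1.85 TPM) and Afp above Cav1 in saline livers (1.43 and 1.17 TPM), with ranges that met in each group. In vehicle-treated cells Cav1 was the highest at 151.6 ± 6.79 TPM (SD, n = 3), and Gc, Cav2 and Alb followed with overlapping ranges at means of 68.4, 65.4 and 58.2 TPM. Afm and Afp also overlapped there, at 4.85 and 4.70 TPM, and Dab2, Fcgrt, Cubn and Lrp2 closed the order at 1.97, 0.847, 0.383 and 0.0033 TPM.

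In AML12 hepatocytes the cells' own albumin and afamin mRNA was lower, and Afp higher, in cells given rMSA, but in the fit of all 12 libraries none of the 8 members tested passed for rMSA against vehicle. Among all genes 7.80% passed, 5.90% higher and 1.89% lower. Unadjusted, 4 of the 8 had p under 0.05 by limma, as did 2040 of all 10826 genes. Alb had 36.85, 23.60 and 32.29 TPM in rMSA libraries, against 69.17, 48.22 and 57.31 TPM in vehicle libraries. Every rMSA library was below every vehicle library. Its log2 fold change was -0.90 (SE 0.28, 95% interval -1.53 to -0.27, adjusted p = 0.0894). Afm had 2.45, 1.86 and 2.03 TPM in rMSA libraries and 6.01, 3.39 and 5.14 TPM in vehicle libraries, again without overlap, with a log2 fold change of -0.89 (SE 0.25, adjusted p = 0.0593). Afp had 7.21, 6.44 and 6.21 TPM in rMSA libraries and 5.39, 3.89 and 4.82 TPM in vehicle libraries. All 3 rMSA values were the higher ones, with a log2 fold change of 0.43 (SE 0.13, adjusted p = 0.0772). Gc had 91.72, 68.04 and 73.98 TPM under rMSA, against 79.53, 63.08 and 62.57 TPM under vehicle, groups that overlapped, and its log2 fold change of 0.18 had a 95% interval of -0.23 to 0.60. Groups without overlap, as in 2 members that were higher and 3 that were lower, were found in 25.5% and 14.2% of all genes.

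That comparison depended on which libraries set the error. Deviations of same-numbered vehicle and rMSA libraries from their group means correlated at 0.53, 0.14 and 0.58. Of these 3 pairs 2 were best with their own number, and the labels state no shared culture. With the replicate number as a block Alb (adjusted p = 0.00434) and Afm (adjusted p = 0.0107) passed. With the block 558 of 10826 genes passed higher and 169 lower, where 639 and 205 did without it. With only the vehicle and rMSA libraries in the fit, Alb (adjusted p = 0.00422), Afm (0.00548), Afp (0.0357) and Fcgrt (0.0204) all passed. In that fit 1837 of 10885 genes passed higher and 802 lower. Alb, Afm, Afp and Fcgrt also passed without insulin library 2 alone, where 1128 of 10842 genes passed higher and 433 lower. Without insulin library 3, Afp (0.0346) and Afm (0.0259) passed, where 1127 of 10828 genes passed higher and 400 lower.

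With insulin in both arms the same genes lay on the same sides. For rMSA + insulin against insulin, 1 of the 8 members passed, Afp, against 17.3% of all genes in either direction, 14.5% higher and 2.73% lower. No overlap between these groups, as in 1 member higher and 1 lower, was found in 20.7% and 4.81% of all genes. Afp had 9.26, 8.48 and 8.42 TPM in rMSA + insulin libraries, against 4.56, 4.36 and 5.22 TPM in insulin libraries, so the groups lay far apart. Its log2 fold change was 0.77 (SE 0.13, adjusted p = 0.00242). The call was lost with quantile normalization (adjusted p = 0.0665) and with only these 6 libraries in the fit (adjusted p = 0.0720). Afm had 4.64, 2.92 and 4.14 TPM in rMSA + insulin libraries and 8.59, 4.82 and 9.79 TPM in insulin libraries, with no overlap and a log2 fold change of -0.80 (SE 0.25, adjusted p = 0.0511). It passed without vehicle library 2 (adjusted p = 0.0497) and without insulin library 2 (0.00505). Alb had 66.90, 33.35 and 47.27 TPM in rMSA + insulin libraries and 87.23, 52.61 and 93.85 TPM in insulin libraries. These groups overlapped, since rMSA + insulin library 1 was above insulin library 2, and the log2 fold change was -0.66 (SE 0.28, adjusted p = 0.141). It passed without insulin library 2 (adjusted p = 0.0310). Within each of the 3 same-numbered pairs Alb was lower under rMSA + insulin, and with the replicate block Alb (adjusted p = 0.0117) and Afm (0.0108) passed. The deviations of these pairs from their group means correlated at 0.095, 0.79 and 0.80, although the labels state no shared culture. Gc had 136.97, 107.59 and 119.83 TPM in rMSA + insulin libraries, within the 102.80 to 166.07 TPM of the insulin libraries.

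**Figure D2:**
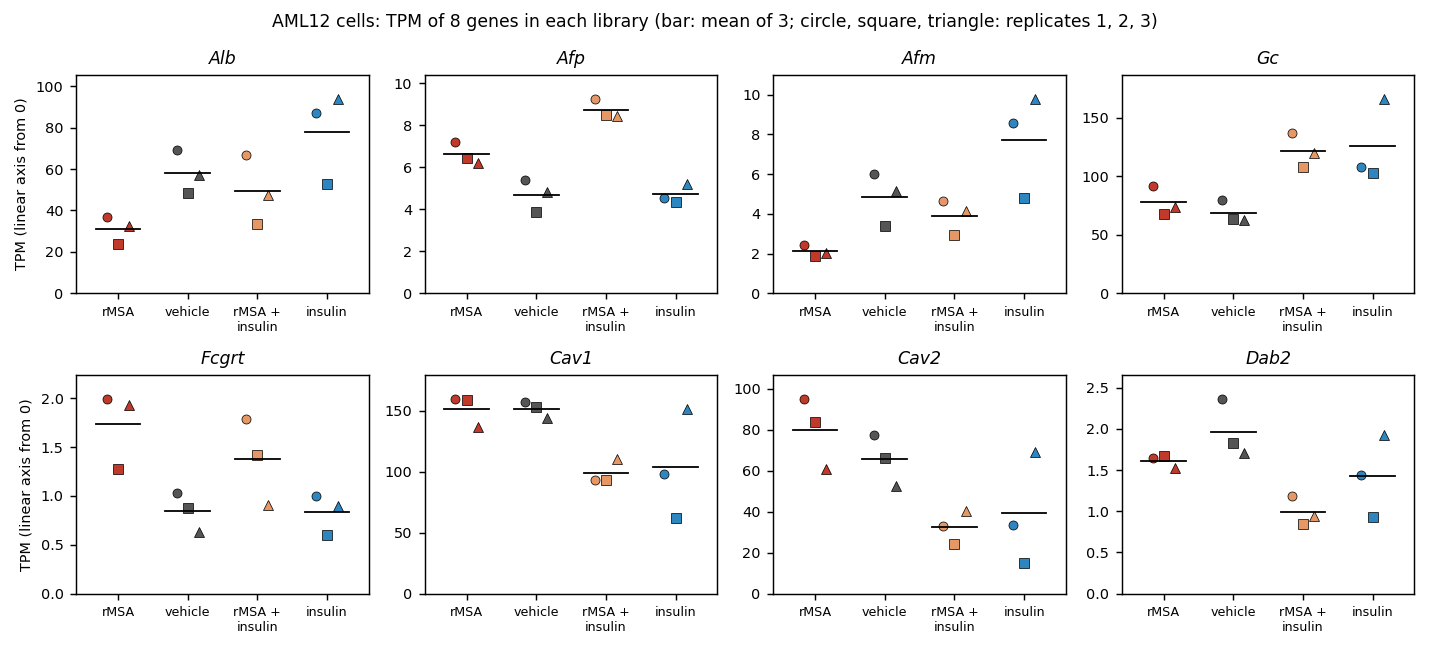
TPM of 8 member genes in each of the 12 AML12 libraries, on linear axes from 0, with rMSA beside vehicle and rMSA + insulin beside insulin. Points are libraries, with the replicate number as the shape, and bars are means of 3. Alb and Afm lie lower, and Afp higher, in rMSA than in vehicle libraries without overlap, and Cav1 and Cav2 of insulin library 3 lie at 151.31 and 69.26 TPM, near the vehicle libraries.

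The mean of both comparisons, added after these values had been seen, put 4 members past the threshold, Alb and Afm lower and Afp and Fcgrt higher. Among all genes 22.8% passed, 17.9% higher and 4.88% lower. The average log2 fold change was -0.78 for Alb (SE 0.20, adjusted p = 0.0170), -0.84 for Afm (SE 0.18, adjusted p = 0.0060), 0.60 for Afp (SE 0.09, adjusted p = 8.6e-04) and 0.46 for Fcgrt (SE 0.12, adjusted p = 0.0170). The call for Fcgrt, a gene near 1 TPM here, was lost with median centring (adjusted p = 0.181) and with quantile normalization (0.193). The interaction, which asks whether the change under rMSA differed with insulin, passed for none of the 8 members and for 0.0369% of all genes (limma, 698 genes at an unadjusted p under 0.05, no member among them). Its 95% interval for Alb, -0.65 to 1.12, was wide, so a difference of that size was not detectable.

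Ratios within a library do not depend on how the libraries were scaled, and they are given as a description with no test. Alb per Gc was 0.402, 0.347 and 0.436 in rMSA libraries, against 0.870, 0.764 and 0.916 in vehicle libraries. With insulin it was 0.488, 0.310 and 0.394 under rMSA + insulin, against 0.808, 0.512 and 0.565 under insulin alone. The rMSA libraries were the lower ones in both pairs, without overlap. Alb per Afp was 3.66 to 5.20 in rMSA libraries against 11.9 to 12.8 in vehicle libraries, and 3.93 to 7.22 in rMSA + insulin libraries against 12.1 to 19.1 in insulin libraries. Alb per Afm was 12.7 to 15.9 in rMSA libraries and 11.1 to 14.2 in vehicle libraries, which overlapped, and was 11.4 to 14.4 in rMSA + insulin libraries and 9.59 to 10.9 in insulin libraries, which did not. Alb made up 26.2 ± 2.33% of the family's TPM under rMSA and 42.7 ± 1.80% under vehicle, and 26.3 ± 4.41% under rMSA + insulin and 36.0 ± 5.21% under insulin (SD, n = 3).

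**Figure D3:**
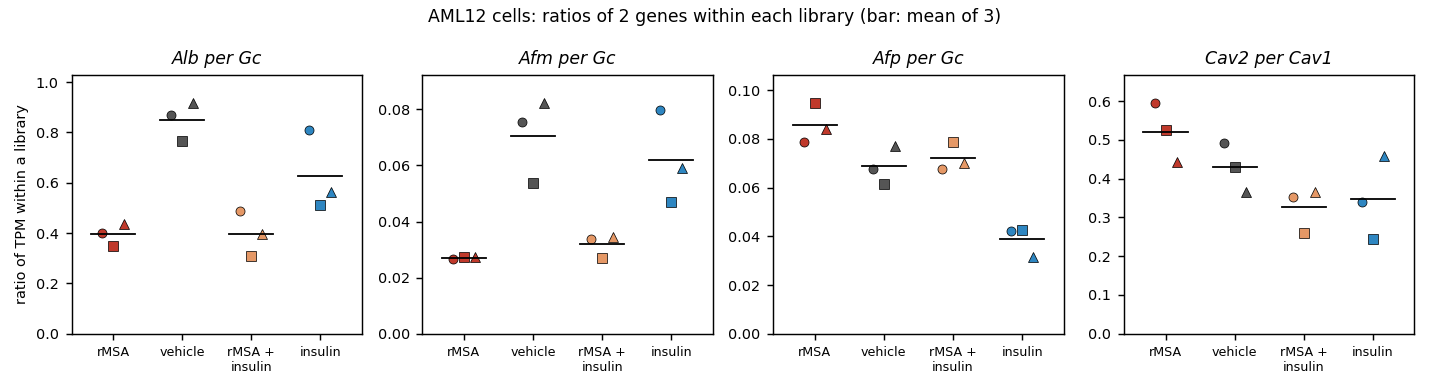
Ratios of TPM of 2 genes within each AML12 library, on linear axes from 0, by group, with bars at the means of 3 libraries. Alb per Gc and Afm per Gc are lower in every rMSA library than in every vehicle library, and lower in every rMSA + insulin library than in every insulin library.

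In the db/db livers none of the 4 family genes passed. Alb had 52052, 44225 and 48524 TPM in rMSA livers, against 52715, 41367 and 32790 TPM in saline livers. The groups overlapped, saline liver 3 being the lowest, and the log2 fold change of 0.21 had a 95% interval of -0.28 to 0.71 (adjusted p = 0.499). Without saline liver 3 it was 0.04. Gc had 7187, 6747 and 7000 TPM in rMSA livers and 6799, 6677 and 5235 TPM in saline livers, with a log2 fold change of 0.17 (95% interval -0.16 to 0.50). Afm had 114.27, 97.92 and 103.55 TPM in rMSA livers and 109.01, 108.07 and 74.08 TPM in saline livers, with a log2 fold change of 0.13 (95% interval -0.23 to 0.50). Afp stayed low, at 1.31, 2.10 and 2.15 TPM in rMSA livers and 1.54, 1.50 and 1.26 TPM in saline livers, and also overlapped. Within a library Alb per Gc was 6.55 to 7.24 in rMSA livers and 6.20 to 7.75 in saline livers, and Alb was 86.6% to 87.7% of the family's TPM under rMSA and 85.9% to 88.4% under saline. The 2 experiments differed in dose, time and material, and the difference between them was not tested.

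Fcgrt, the heavy chain of FcRn, was high in liver and near 1 TPM in the cell line. It had 229.33, 242.33 and 233.59 TPM in rMSA livers, against 179.39, 192.79 and 226.56 TPM in saline livers. The rMSA livers were all above the saline livers, as was so for 32.7% of all genes, by a narrow gap to saline liver 3. The log2 fold change of 0.24 (SE 0.11) did not pass (adjusted p = 0.132). Without saline liver 3 it was 0.34 and passed (adjusted p = 0.0304). In AML12 hepatocytes Fcgrt had 1.99, 1.28 and 1.93 TPM in rMSA libraries and 1.03, 0.88 and 0.63 TPM in vehicle libraries, with no overlap. There 25.5% of all genes were higher without overlap. The log2 fold change of Fcgrt was 0.56 (SE 0.17, adjusted p = 0.0724). With insulin Fcgrt had 1.79, 1.42 and 0.91 TPM in rMSA + insulin libraries and 1.0, 0.60 and 0.90 TPM in insulin libraries, which overlapped (log2 fold change 0.36, adjusted p = 0.172). Of 13 tested genes of the FcRn complex and recycling endosomes, 1 rose in the liver, Myo5b, a myosin motor of recycling endosomes, at 10.63 ± 1.67 TPM in rMSA livers and 4.23 ± 0.19 TPM in saline livers (log2 fold change 1.14, adjusted p = 8.8e-04). The median of the list was 0.24 and that of all genes 0.12, and 21.8% of all genes rose. In AML12 hepatocytes 1 of the 13 fell, Rab11b, a small GTPase of recycling endosomes, for rMSA against vehicle (log2 fold change -0.41, adjusted p = 0.0076) and for rMSA + insulin against insulin (-0.42, adjusted p = 0.0041). Of all genes 1.89% and 2.73% fell in these comparisons.

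The caveolins were the reverse, high in the cell line and near 1 TPM in liver. Cav1 had 159.48, 158.84 and 136.78 TPM in rMSA libraries, against 157.54, 152.94 and 144.17 TPM in vehicle libraries, and the rMSA values spanned all of the vehicle values. The log2 fold change was -0.0012 with a 95% interval of -0.54 to 0.54. Cav1 had 92.92, 93.38 and 110.07 TPM in rMSA + insulin libraries, against 97.80, 61.89 and 151.31 TPM in insulin libraries, where the spread of the insulin libraries covered the other group (log2 fold change 0.02, 95% interval -0.52 to 0.56). The sign was negative with median centring (-0.24), with quantile normalization (-0.17) and without the 50 highest genes (-0.07). Without insulin libraries 1 and 2 it was -0.61 and passed (adjusted p = 0.0050), a value that rests on the lone insulin library 3, assumed to vary like the other groups. Cav2 had 94.82, 83.47 and 60.77 TPM in rMSA libraries, against 77.54, 65.99 and 52.73 TPM in vehicle libraries, and 32.90, 24.38 and 40.22 TPM in rMSA + insulin libraries, against 33.27, 15.08 and 69.26 TPM in insulin libraries. Both pairs overlapped. Cav2 lies 17204 bases before Cav1 on chromosome 6, at chr6:17281185-17289130 and chr6:17306335-17341328 (GRCm38).

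By limma no gene passed for insulin against vehicle (0% of 10826 genes, 3969 at an unadjusted p under 0.05, 4 of the members among them). Groups without overlap were found for 1 member, higher, and for 4.35% of all genes higher and 11.8% lower. Gc had 107.92, 102.80 and 166.07 TPM in insulin libraries and 79.53, 63.08 and 62.57 TPM in vehicle libraries, without overlap, and its log2 fold change was 0.84 (SE 0.19, adjusted p = 0.135). It passed without insulin library 3 (0.62, adjusted p = 0.0047), where 770 of 10828 genes passed higher and 6635 lower. Without insulin libraries 1 and 2 it was 1.28 (adjusted p = 0.0377), a value that rests on 1 insulin library assumed to vary like the other groups. Cav1 and Cav2 had log2 fold changes of -0.63 (adjusted p = 0.135) and -0.96 (adjusted p = 0.136), in groups that overlapped through insulin library 3. Both passed without that library (-0.95 and -1.48, adjusted p = 0.0020 and 0.0031), where the median of all genes was -0.45. Without insulin library 2 Cav1 and Cav2 were -0.31 and -0.42 and did not pass. With median centring they were -0.24 (adjusted p = 0.145) and -0.56 (0.149) and did not pass either. On insulin library 3 alone they were -0.0013 for Cav1 and 0.10 for Cav2. Between rMSA + insulin and rMSA, again none of the 8 members passed (4.05% of all genes did, 2.95% higher and 1.10% lower, and 6 of the members were at an unadjusted p under 0.05). Here 3 members were higher and 3 lower without overlap, as were 18.6% and 37.1% of all genes. Cav2 had 32.90, 24.38 and 40.22 TPM in rMSA + insulin libraries and 94.82, 83.47 and 60.77 TPM in rMSA libraries, with a log2 fold change of -1.27 (SE 0.43, adjusted p = 0.113). Cav1 (-0.61, adjusted p = 0.153), Gc (0.64, adjusted p = 0.0848), Afp (0.35, adjusted p = 0.135) and Afm (0.64, adjusted p = 0.150) were also without overlap, as was Dab2 (-0.40, adjusted p = 0.146), and Alb overlapped (0.62, adjusted p = 0.189). With only these 6 libraries in the fit, Cav2 (adjusted p = 0.0061), Cav1 (0.0052), Gc (0.0092), Afp (0.0330), Afm (0.0170) and Dab2 passed. In that fit 1307 of 10882 genes passed higher and 3333 lower. Without insulin library 2 alone 5 members passed, with 1143 of 10842 genes higher and 2252 lower. Without insulin library 3 alone 5 members passed, with 1048 of 10828 genes higher and 2292 lower. With the replicate block Alb passed alone (adjusted p = 0.0477), where 204 of 10826 genes passed higher and 88 lower. Same-numbered libraries did not pair here, with correlations of 0.11, -0.23 and -0.63. These comparisons share the rMSA or the vehicle libraries with those above.

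In the liver, 2 of the 7 members tested passed, Cav1 and Dab2, both higher, when 30.2% of all genes passed, 21.8% higher and 8.38% lower. Dab2, the adaptor that links cargo receptors to clathrin, had 6.40, 5.29 and 6.03 TPM in rMSA livers, against 2.79, 2.95 and 1.86 TPM in saline livers. The lowest rMSA liver was well above the highest saline liver, and the log2 fold change was 0.98 (SE 0.17, adjusted p = 0.00363), with adjusted p from 0.0066 to 0.0169 when any 1 liver was left out. Cav1 had 2.67, 2.45 and 1.67 TPM in rMSA livers and 1.26, 1.26 and 0.98 TPM in saline livers. The groups did not overlap, as was so for 32.7% of all genes on the higher side and 13.0% on the lower, and the log2 fold change was 0.58 (SE 0.17, adjusted p = 0.0360). With the replicate block the call of Cav1 was lost (adjusted p = 0.0930), though same-numbered livers correlated at 0.050, -0.41 and -0.39. This call was also lost with median centring (adjusted p = 0.103) and with quantile normalization (0.125). It was also lost without saline liver 1, 2 or 3 or without rMSA liver 1 or 2 (adjusted p from 0.0679 to 0.120), and only without rMSA liver 3 did it stay (0.0231). Cav2 had 0.93, 0.84 and 0.83 TPM in rMSA livers and 1.03, 0.80 and 0.27 TPM in saline livers, under the filter and not tested. With a log2 fold change of at least 1 asked for as well, no member was called in any comparison. That stricter rule called 8.61% of all genes in the liver, 1.81% for rMSA against vehicle, 2.70% for rMSA + insulin against insulin, 0.490% for rMSA + insulin against rMSA, 2.10% in the average and 0.0277% in the interaction.

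**Figure D4:**
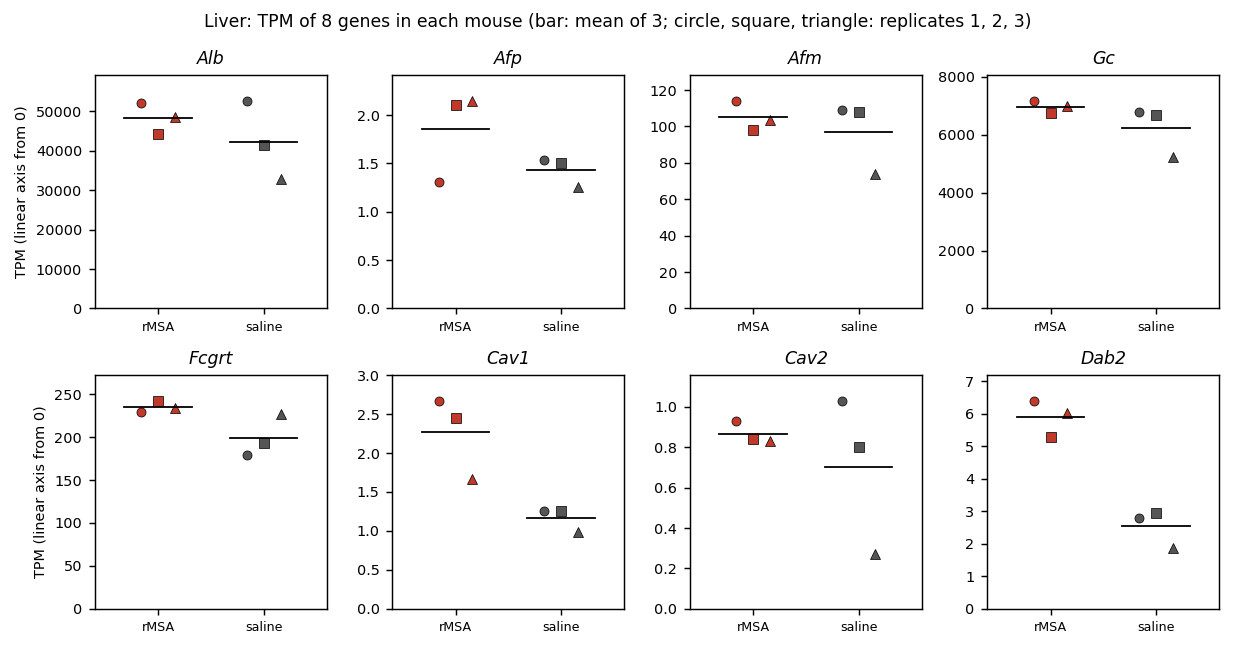
TPM of 8 member genes in each of the 6 db/db livers, on linear axes from 0, rMSA beside saline, with bars at the means of 3. Dab2 lies at 5.29 to 6.40 TPM in rMSA livers and 1.86 to 2.95 TPM in saline livers, while Alb, Afm, Gc and Afp overlap between the groups.

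Liver is a mixture of cells, and more cells of a type and more RNA per cell cannot be told apart here. Markers of liver cell types are therefore given beside Cav1 and Dab2. Among all genes 21.8% rose and 8.38% fell. Of 10 stellate cell and fibroblast markers, 6 rose, none fell, none was at 0, and their summed TPM was 279 to 363 in rMSA livers and 121 to 252 in saline livers. The highest of them, Dcn, overlapped, at 176 to 253 TPM in rMSA livers and 87.3 to 203 TPM in saline livers. Of 10 markers of sinusoidal endothelium 1 rose, Clec4g, none fell, and their sum was 235 to 241 in rMSA livers and 158 to 233 in saline livers. Of 7 tested bile duct markers 4 rose and 1 fell, with sums over all 10 of 94.6 to 190 in rMSA livers and 37.2 to 54.1 in saline livers. The highest of these, Spp1, averaged 114 TPM in rMSA livers and 24.7 TPM in saline livers. Of 10 macrophage markers 1 rose and 2 fell, and the sums overlapped at 545 to 800 in rMSA livers and 532 to 805 in saline livers. Of 7 tested markers of other leukocytes 3 rose and 1 fell, and the sums overlapped. Of the 10 hepatocyte markers 2 rose and 4 fell, while their sum was 35062 to 36684 in rMSA livers and 31227 to 32883 in saline livers. Within that sum Apoa1 averaged 9468 TPM in rMSA livers and 1944 TPM in saline livers. The part of these cells in the rise of Cav1 and Dab2 was not tested. In AML12 hepatocytes, Dab2 had 1.64, 1.67 and 1.53 TPM in rMSA libraries, all just below the 2.36, 1.83 and 1.71 TPM of the vehicle libraries (log2 fold change -0.18, 95% interval -0.51 to 0.16). With insulin it had 1.19, 0.84 and 0.94 TPM under rMSA + insulin and 1.44, 0.93 and 1.93 TPM under insulin, which overlapped (log2 fold change -0.27, adjusted p = 0.256). It passed without insulin library 2 (-0.43, adjusted p = 0.0442), with median centring (-0.53, 0.0091), with quantile normalization (-0.52, 0.0048) and with a robust fit (-0.30, 0.0433).

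The receptors that Dab2 serves in the kidney were nearly absent. Lrp2 was listed at 0.06, 0.03 and 0.02 TPM in rMSA livers and at 0.03, 0.01 and 0.01 TPM in saline livers, and never above 0.01 TPM in AML12 hepatocytes. Cubn was at 0.66, 0.44 and 0.27 TPM in rMSA libraries, 0.43, 0.45 and 0.27 TPM in vehicle libraries, 0.30, 0.25 and 0.36 TPM in rMSA + insulin libraries and 0.24, 0.21 and 0.41 TPM in insulin libraries, with every pair overlapping. Both were under the filter and not tested. Exons of Afm and Dab2 overlap, on the opposite strand, Gm42109 (108 bases) and the processed pseudogene Gm18888 (211 bases), and those of Cubn overlap Gm13270 (368 bases). The strand setting of the counting is not given in the sources used here, so reads of such a pair cannot be told apart.

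**Figure D5:**
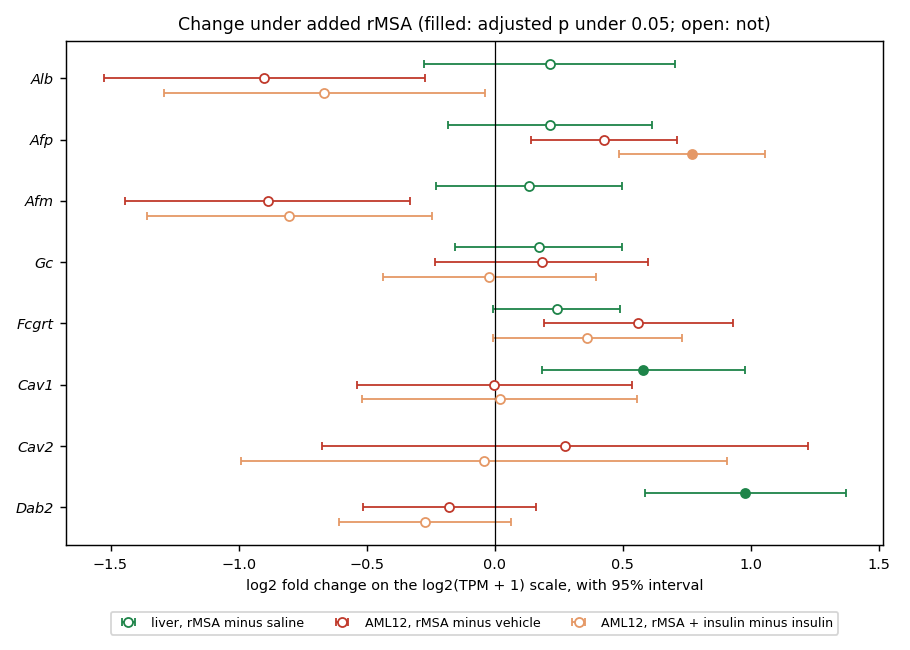
Log2 fold changes of 8 members under added rMSA, on the log2(TPM + 1) scale, with 95% intervals, in the liver and in AML12 hepatocytes without and with insulin. Filled points passed at an adjusted p under 0.05, which were Cav1 and Dab2 in the liver and Afp with insulin, and Cav2 has no liver value because it was under the filter.

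Other genes of caveolae rose in the liver beside Cav1. Of 14 tested genes of the caveola coat and its scission, 6 rose and none fell, where 21.8% of all genes rose and 8.38% fell, with a median log2 fold change of 0.42, against 0.12 for all genes. Cav1, whose call was lost under the settings given above, is 1 of the 6. Ehd2, an ATPase that holds caveolae at the surface, had 4.92 ± 0.66 TPM in rMSA livers and 1.64 ± 0.135 TPM in saline livers (log2 fold change 1.16, adjusted p = 8.5e-04). Ehd4, a relative of it, Pacsin2, which bends caveolar membrane, and the kinase Src had log2 fold changes of 1.02, 0.67 and 1.33 (adjusted p of 0.0016, 0.0020 and 0.0024). The others were Cav1 and Cavin1, the main coat protein of caveolae (0.87), named after its value was seen. In AML12 hepatocytes 1 of 12 rose for rMSA against vehicle, Ehd1, at 75.6 ± 1.63 TPM in rMSA libraries and 51.2 ± 1.44 TPM in vehicle libraries (log2 fold change 0.55, adjusted p = 0.0035). With insulin in both arms 3 of 12 rose, Ehd1 (0.78), Pacsin3 (0.37) and the membrane-cutting GTPase Dnm2 (0.54). Of all AML12 genes 5.90% rose without insulin and 14.5% with it. The medians of the list were 0.21 and 0.32, against 0.06 and 0.21 for all genes.

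Of 17 tested genes of the cubilin, megalin and clathrin adaptor list, 4 rose in the liver and none fell, a share near the 21.8% of all genes that rose. Beside Dab2 these were Gipc1, a scaffold that binds megalin (log2 fold change 0.79, adjusted p = 0.0025), and the AP-2 adaptor subunits Ap2a2 (0.66, adjusted p = 0.0044) and Ap2b1 (0.63, adjusted p = 0.0051). The list's median was 0.17, near the 0.12 of all genes. In AML12 hepatocytes 1 of the 17 rose and 1 fell for rMSA against vehicle, and 2 rose and none fell with insulin. Of all AML12 genes 5.90% rose and 1.89% fell for rMSA against vehicle, and 14.5% and 2.73% with insulin. The AP-2 subunit Ap2m1 fell for rMSA against vehicle (-0.30, adjusted p = 0.0251), and Lrpap1, the chaperone of megalin, rose with insulin (0.44, adjusted p = 0.0093). Of 12 tested genes for other proteins that bind albumin, 6 rose and 1 fell in the liver (median 0.52), where 21.8% and 8.38% of all genes did, among them Sparc, a matrix protein, at 97.9 ± 15.0 TPM in rMSA livers and 42.7 ± 6.09 TPM in saline livers, the chaperone Calr (log2 fold change 0.87), Lgals3 (1.36) and Hnrnpc (0.67). In AML12 hepatocytes 2 of 10 rose in both comparisons, Calr (0.51 in each) and Stab1, a scavenger receptor, which had 1.71 ± 0.085 TPM in rMSA libraries and 0.400 ± 0.020 TPM in vehicle libraries. Of 15 lysosomal genes 7 rose and 2 fell in the liver, led by Cd63 (3.73) and the peptidase Dpp7 (1.68). In AML12 hepatocytes the cathepsins Ctsl (0.67) and Ctsz (0.37) rose and Dpp7 fell (-0.33) for rMSA against vehicle.

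Of 26 regulators of the family, 6 rose and 4 fell in the liver (median -0.09), and the share that rose was near the 21.8% of all genes that rose there, while 8.38% of all genes fell. Hnf4a, the nuclear receptor that sets hepatocyte identity, fell to 229 ± 25.7 TPM in rMSA livers, against 500 ± 47.1 TPM in saline livers (log2 fold change -1.12, adjusted p = 3.0e-04). Cebpa, which binds the albumin promoter, rose to 407 ± 36.9 TPM in rMSA livers, against 238 ± 44.8 TPM in saline livers (0.78, adjusted p = 0.0046). Dbp, a clock factor first found on that promoter, and Trp53, which represses Afp, rose by 1.33 and 0.71 (log2). In AML12 hepatocytes Cebpd was the only 1 of 21 to pass for rMSA against vehicle, at 7.10 ± 0.68 TPM in rMSA libraries and 3.75 ± 0.28 TPM in vehicle libraries (0.77, adjusted p = 0.0014). Of all genes 7.80% passed there. With insulin 4 rose and 1 fell, where 14.5% and 2.73% of all genes did. Among them were Cebpd (0.84), Cebpb (1.31), Gata4 (0.46) and Dbp (-0.40). Of 5 tested fetal liver genes in the liver, 3 rose, Mest (1.22), Krt19 (0.88) and Sox4 (1.32), while Afp itself had 0.22 (adjusted p = 0.391). In AML12 hepatocytes Afp was the 1 of 6 that rose with insulin, and none passed for rMSA against vehicle, where Peg3 (0.15) and Krt19 (-0.27) were the most abundant.

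Of 10 other plasma carrier proteins tested in the cells, 6 rose and 1 fell for rMSA against vehicle (median 0.47, against 0.06 for all genes), where 5.90% of all genes rose and 1.89% fell. With insulin 5 rose and 1 fell, where 14.5% of all genes rose and 2.73% fell. Hp, haptoglobin, had 167 ± 16.8 TPM in rMSA libraries and 27.6 ± 1.18 TPM in vehicle libraries (log2 fold change 2.55, adjusted p = 5.5e-06). Hpx, which carries heme, Rbp4, which carries retinol, and Orm1, an acute phase protein, had log2 fold changes of 0.98, 0.45 and 1.27. The 1 that fell was Ttr, transthyretin, a carrier of thyroid hormone, at 51.2 ± 12.2 TPM in rMSA libraries and 171 ± 29.0 TPM in vehicle libraries (-1.73, adjusted p = 0.0033), and with insulin at 92.3 ± 37.8 TPM in rMSA + insulin libraries and 220 ± 50.5 TPM in insulin libraries (-1.29, adjusted p = 0.0103). In the liver 5 of 17 rose and 4 fell, where 21.8% and 8.38% of all genes did. Those with the smallest p were Serpina7 (4.07), Apoa1 (2.29), Pltp (2.06) and Orm2 (-2.22). There Ttr, named because it fell in the cells, was among the 5 that rose (0.70).

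Among the genes whose pattern over the 12 AML12 libraries lay closest to Alb, by the root mean square difference in log2(TPM + 1) about each gene's mean, were Spp2 (0.155), Afm (0.155), Fxyd2 (0.267) and Prodh2 (0.293), among 10826 genes, with 0.567 as the root mean square of Alb itself. Afp, which lies between Alb and Afm on the chromosome, had the opposite sign under rMSA. Among those closest to Cav1 were Fech (0.0677), Dcun1d1 (0.0690), Laptm4b (0.0734) and Stat6 (0.0736), against 0.415 for Cav1 itself. Over the 6 livers the nearest to Alb were 3300002I08Rik (0.0491), Zfand4 (0.0587), Kpna2 (0.0696), Irs1 (0.0703) and Ints13 (0.0703), where Alb itself had 0.235, and the nearest to Cav1 were Gmppa (0.0727), Akr1b8 (0.0808), Bola3 (0.0833), Vps8 (0.0883) and Dusp19 (0.0934), where Cav1 had 0.329. All these points share libraries, and nothing follows from them on shared control.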

How the data were processed

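Messenger RNA was sequenced from 6 db/db livers and 12 AML12 libraries. Per the labels and the methods, RNA with an integrity number above a set limit was depleted of ribosomal RNA and sequenced on a BGISEQ platform. The submitters' processing notes name Trimmomatic 0.33, STAR 2.5.2b, featureCounts of Subread 1.6.0 and GRCm38, while annotation, strandedness and how TPM was computed are not given in the sources used. The authors deposited TPM values with 2 decimals, 1 column per library. Read counts cannot be had from TPM, so no count test was run, depth is unknown and counting error is not covered. For the liver, 23 symbols turned into dates were restored from their gene IDs.

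Log2(TPM + 1) was tested with limma 3.58.1 in R 4.3.3 (group means, moderated variances that follow a trend with expression, Benjamini-Hochberg adjustment over all genes tested), keeping genes that averaged 1 TPM or more. The 12 AML12 libraries shared 1 fit, the 6 livers another. "Passed" means an adjusted p under 0.05. Genes named from each list are up to 4 members with the smallest p that passed, or, if none did, up to 2 by highest mean, and others are marked. A few genes that this rule would name are not reported here. Members, lists and alternatives were chosen with earlier results of these data known. Alternatives were 0.1 or 5 TPM added, no filter or one at 5 TPM, median centring, quantile normalization, rescaling without the 50 highest genes or without Alb, a robust fit, array weights, a replicate block, only the groups compared, a fold threshold, and each library left out. Same-numbered vehicle and rMSA libraries had correlated deviations from their group means (0.53, 0.14 and 0.58), which met the rule for pairing that each be over 0.1, although the labels state no shared culture. Same-numbered rMSA + insulin and insulin libraries (0.095, 0.79 and 0.80) and those of the other comparisons did not meet it. Promoters and positions came from RefSeq tables of GRCm38.p6 and exon overlaps from GENCODE M21, and all 10 members matched.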

Additional observations from a re-analysis of the deposited data

Results flagged for a closer look

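Dab2 had log2 fold changes of opposite sign in the 2 experiments. In the liver every rMSA mouse was above every saline mouse, as was so for 32.7% of all genes, with a log2 fold change of 0.98. In AML12 hepatocytes every rMSA library was below every vehicle library, as was so for 14.2% of all genes. That gap was narrow, from 1.67 TPM in the highest rMSA library to 1.71 TPM in the lowest vehicle library. The AML12 log2 fold change was -0.18, with a 95% interval of -0.51 to 0.16 that held both signs. The difference between the experiments was not tested, and the AML12 change did not pass (adjusted p = 0.694). With insulin in both arms it was -0.27 (adjusted p = 0.256), and -0.43 without insulin library 2 (adjusted p = 0.0442).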

How the results depend on the processing

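Depth is unknown and each group has 3 libraries, so members near 1 TPM (Fcgrt in the cells, Cav1, Afp and Dab2) are limited by rounding and by few libraries. A tally over settings covered every member tested for rMSA against its control, in the liver and in the cells without and with insulin. For insulin against vehicle it covered only Gc, Cav1 and Cav2, and for rMSA + insulin against rMSA it left out Fcgrt and Dab2. In the average it covered only Alb, Afp, Afm and Fcgrt, and the interaction was left out. Of these values, 685 kept direction and side of the threshold, 110 newly passed, 12 no longer passed and 21 turned sign. The causes were not tested.

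The number of members that passed in the liver, 2, was 0 with a filter at 5 TPM or with a fold threshold, 1 with median centring and 1 with quantile normalization, and 1 to 2 with each library left out. For rMSA against vehicle, 0 became 1 with 0.1 TPM added, 2 without the 50 highest genes and with either median centring or quantile normalization, 4 if the fit was robust, with only the groups compared and without insulin libraries 1 and 2, and 5 with array weights, with 0 to 4 on leaving out each library. Between rMSA + insulin and insulin, 1 became 0 with only the groups compared or a fold threshold, 2 with 5 TPM added and without the 50 highest genes, 3 with quantile normalization, a robust fit or array weights, 4 with median centring and 5 without insulin libraries 1 and 2, with 1 to 4 on leaving out each library. For insulin against vehicle, 0 became 1 with median centring and without insulin libraries 1 and 2, 2 with quantile normalization, 4 with a robust fit and 5 with array weights, with 0 to 4 on leaving out each library. For rMSA + insulin against rMSA, 0 became 1 without the 50 highest genes, 5 with quantile normalization, 6 with median centring, a robust fit, only the groups compared and without insulin libraries 1 and 2, and 8 with array weights, with 0 to 5 on leaving out each library. The average of both rMSA comparisons, 4, was 2 with a filter at 5 TPM, 0 with a fold threshold and 4 to 5 on leaving out each library. The interaction stayed at 0 on leaving out each library. Leaving out both insulin libraries was chosen after seeing the data. Many more of all 10826 AML12 genes also passed with array weights and with a robust fit. With array weights, 5058 passed higher and 2300 lower for rMSA against vehicle, and 5518 and 911 for rMSA + insulin against insulin. For insulin against vehicle these were 728 and 6412, and for rMSA + insulin against rMSA 3387 and 6495. The robust fit gave 1951 and 948, 4179 and 844, 757 and 5871, and 1754 and 3804, in that order.

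With the replicate block the number of members that passed was 2 for rMSA against vehicle, 1 in the liver, 3 for rMSA + insulin against insulin (Alb, Afp and Afm) and 1 for rMSA + insulin against rMSA. The labels state no shared culture for any pair. For rMSA + insulin against insulin the 3 pairs correlated at 0.095, 0.79 and 0.80, each best with its own number, and only the first missed the rule. For rMSA against vehicle 2 of the 3 were best with their own number.

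Signs turned for Afm in the liver, to -0.0055 with median centring and -0.030 with quantile normalization (-0.047 to 0.23 on leaving out each library), and for Cav1 under rMSA against vehicle, to 0.057 with array weights (-0.039 to 0.071). For rMSA + insulin against insulin, Gc had 0.025 with a robust fit and 0.32 with array weights (-0.15 to 0.20 on leaving out each library). There Cav1 had -0.24 with median centring, -0.17 with quantile normalization, -0.073 without the 50 highest genes, -0.070 with array weights, and -0.61 without insulin libraries 1 and 2 (-0.30 to 0.34 on leaving out each library), and Cav2 ran from -0.58 to 0.49. Cav2 under insulin against vehicle had 0.10 without insulin libraries 1 and 2. The average call for Fcgrt was lost with median centring (adjusted p = 0.181) and quantile normalization (0.193). Dab2 passed in that average with median centring, quantile normalization, a robust fit, without insulin library 2 and without insulin libraries 1 and 2.

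As deposited, 1942 genes passed higher and 528 lower in the average of both rMSA comparisons, and 1183 and 1170 with median centring. Between rMSA + insulin and rMSA these were 319 and 119, and 619 and 758. Quantile normalization gave splits of 1774 and 1671 (liver), 724 and 623 (rMSA against vehicle) and 935 and 888 (rMSA + insulin against insulin). For insulin against vehicle 13 genes passed with median centring, 11 higher and 2 lower. Quantile normalization gave 19 and 4 there, and 1048 and 870 for rMSA + insulin against rMSA.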
